A study of Mus musculus with 3 samples.

Results

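The cells described here are otic epithelial cells of the mouse ear at embryonic day E10.5 that carried Isl1 together with other genes linked to the future cristae. They were chosen on measured values. Among barcodes with at least 1000 genes and at most 10% mitochondrial transcripts, a cell was taken as otic with at least 1 unique molecular identifier (UMI, 1 captured transcript) of Epcam, at least 2 of Fbxo2, Hmx2, Hmx3 and Pax2 together, at most 1 of Prrx1 and Twist1 together and none of Neurod1. An otic cell was called crista-like with at least 1 UMI of Isl1 and at least 1 UMI of at least 2 of the 5 companion genes Cyp26b1, Ngfr, Mybpc1, Rprm and Prrx2. This left 1187 crista-like cells of 7198 otic cells and of 26130 barcodes kept. CD replicate 1 held 459 of them, WT replicate 1 held 329 and WT replicate 2 held 399, and no barcode of theirs was shared between libraries.

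The study profiled single cells of dissociated otic vesicles, the epithelial sacs from which the inner ear forms. The CD group is 1 library of Sox9Y440X/+ vesicles, heterozygous for a Sox9 allele with a premature stop codon, and the WT group is 2 libraries of wild-type vesicles. Each library came from pooled vesicles of E10.5 embryos, and the labels do not say whether the WT pools came from separate litters, so the spread between them may be technical. With 1 CD library the genotype cannot be told apart from the pool, the dissociation and the library.

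Cristae are the sensory patches at the base of the semicircular canals, where hair cells sense rotation of the head. Isl1 is a LIM homeodomain transcription factor of early sensory and neuronal otic cells, and Bmp4, a secreted signal, is among the earliest markers of the crista fields. Cyp26b1 breaks down retinoic acid, Ngfr is the low-affinity neurotrophin receptor, Mybpc1 is a myosin-binding protein, Rprm is a p53-induced inhibitor of the cell cycle and Prrx2 is a homeobox gene. SOX9 is a transcription factor of the otic placode and of cartilage, and SOX10 takes over part of its role in the later otic epithelium and in glia.

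The kept barcodes numbered 8548 in the CD library, 6564 in WT replicate 1 and 11018 in WT replicate 2. Between 14 and 27 of them were shared by each pair of libraries. Crista-like cells had medians of 24311 UMIs in CD replicate 1, 30508 in WT replicate 1 and 22620 in WT replicate 2, deeper in each library than the other otic cells, at 20690.5, 23401 and 16735 UMIs. The 3 summed crista-like profiles held 12229091 UMIs in the CD library, 11217619 in WT replicate 1 and 9768726 in WT replicate 2. Scrublet, which scores likely doublets, marked 11, 1 and 4 of the crista-like cells in the same order, and these cells were kept unless stated.

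The companion genes were carried unequally. Prrx2 was found in 92.8% of crista-like cells in CD replicate 1, 91.5% in WT replicate 1 and 89.5% in WT replicate 2, and Rprm in 71.9%, 78.7% and 84.7%. Ngfr was found in 42.0%, 35.3% and 34.6% of the cells, Mybpc1 in 36.4%, 34.0% and 29.6%, and Cyp26b1 in 30.3%, 35.3% and 25.3%. The cells therefore entered mainly through Prrx2 and Rprm, and 29.0% in CD replicate 1, 31.3% in WT replicate 1 and 39.1% in WT replicate 2 carried these as their sole companions. Cyp26b1, which gives the cells part of their label, was read in fewer than 36% of them in every library.

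Endothelial-type cells gave a background for these shares. These cells, chosen by Cdh5 and Pecam1 and of similar depth (medians of 20470, 21753.5 and 17052.5 UMIs in CD replicate 1, WT replicate 1 and WT replicate 2), carried an Isl1 UMI in 15.6%, 10.7% and 11.6% of cells. Prrx2 was read in 10.2%, 4.85% and 12.1% of them, Rprm in 4.79%, 3.40% and 3.16%, Ngfr in 2.40%, 0.971% and 0.526%, and Cyp26b1 in 1.2%, 2.43% and 1.05%. After every cell was thinned to 5000 UMIs, which left out 4 crista-like cells each of CD replicate 1 and WT replicate 2, the crista-like cells of the 3 libraries carried Isl1 in 60.0%, 45.3% and 53.4% and Cyp26b1 in 12.5%, 11.9% and 7.59%. Both genes were used to choose the crista-like cells, so their higher shares there were set by the rule and are given as a description.

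The companion genes went together within the Isl1-carrying otic cells. Mybpc1 was read in 48.1% of those with Cyp26b1 in CD replicate 1, 38.2% in WT replicate 1 and 33.9% in WT replicate 2, against 13.2%, 10.6% and 8.73% of those without Cyp26b1. The gap was smaller for Rprm and Prrx2, through which the cells mainly entered. Prrx2 was read in 76.9%, 68.2% and 60.6% of those with Rprm, against 61.0%, 57.4% and 42.7% of those without Rprm. A deeper cell shows more genes, and the part of depth in these shares was not tested. Median depth ran from 20699 UMIs with 0 companions to 29150 with 5 in CD replicate 1, from 20927.5 to 32393.5 in WT replicate 1 and from 15787 to 25473 in WT replicate 2.

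Genes outside the rule were read beside the crista label. They are not an independent check of it, since cells and gene lists were chosen with earlier results of these data known. Of 11 crista genes fixed as a list, 8 were higher in crista-like than in other otic cells in all 3 libraries, with a median log2 ratio of 0.69 against 0.00 over all 15656 genes compared; 3707 of these genes, or 23.7%, were higher in all 3 libraries. Since the cells were chosen on measured transcripts, all ratios between crista-like and other otic cells are given as descriptions, with no test. The ratios are of CPM, a gene's UMIs scaled to the same total for every group of cells, after adding 1 CPM to each. Bmp4 led, with log2 ratios of 3.07 in CD replicate 1, 2.92 in WT replicate 1 and 2.79 in WT replicate 2. A Bmp4 UMI was carried by 68.8%, 58.7% and 55.9% of the crista-like cells (43.3%, 33.7% and 37.5% after thinning), 24.7%, 19.7% and 19.1% of the other otic cells (9.74%, 7.19% and 8.003%) and 20.4%, 10.2% and 14.2% of the endothelial-type cells (4.19%, 3.41% and 1.63%).

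Other genes of the list followed Bmp4 at smaller size. The log2 ratios of Msx1, a homeobox target of BMP signals, were 0.79, 1.04 and 1.19 in CD replicate 1, WT replicate 1 and WT replicate 2. Those of Lmo4, a LIM-only cofactor needed for the canals and cristae, were 1.35, 1.16 and 1.24, and those of Gata3 were 0.88, 0.54 and 0.55. Sox2, the prosensory SOX factor, stood at 0.47, 0.31 and 0.69, and Bdnf, the neurotrophin of vestibular sensory epithelia, at 0.86, 0.63 and 0.57. Msx2 went the other way, at -0.42, -0.33 and -0.66, and Ntf3 and Jag1 were not on 1 side in all 3 libraries. Zpld1, a component of the matrix over the mature crista, was close to the limit of reading at 1.35, 0.270 and 1.36 CPM.

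The genes with the highest ratios by the ranking rule were, after Bmp4, Tgfb2, Crim1, Cnr1, Fn1, Gata2, Fgf10, Adamts19, Lmo4 and Unc5c. Tgfb2 is a TGF-beta ligand and had log2 ratios of 1.86 in CD replicate 1, 1.72 in WT replicate 1 and 1.95 in WT replicate 2. Crim1 is a membrane protein that binds BMPs, at 1.91, 1.92 and 1.66. The cannabinoid receptor Cnr1 stood at 1.87, 1.51 and 1.77, fibronectin (Fn1) at 1.71, 1.64 and 1.46, and Gata2 at 1.51, 1.64 and 1.31. Fgf10, a ligand of the prosensory field and of canal formation, stood at 1.55, 1.19 and 1.75. In all, 31 genes were at least 2-fold higher in crista-like cells in every library, and 68 were at least 2-fold lower.

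Genes of the dorsal and endolymphatic vesicle were low. Of 15 such genes compared, 8 were lower in crista-like than in other otic cells in all 3 libraries, with a median log2 ratio of -0.47, where 25.4% of all genes compared were lower in all 3. The homeobox gene Gbx2 had log2 ratios of -2.06, -1.62 and -1.61 in CD replicate 1, WT replicate 1 and WT replicate 2, and Rdh10, which makes retinal for retinoic acid synthesis, -2.06, -2.04 and -1.66. Nrp2, a semaphorin co-receptor, stood at -2.55, -2.53 and -1.88, and the R-spondin Rspo3, a Wnt amplifier, at -1.78, -1.76 and -1.69. Within the retinoic acid genes, the breakdown enzyme Cyp26b1 that chose the cells stood at 38.2 CPM in CD replicate 1, 23.4 in WT replicate 1 and 20.003 in WT replicate 2, and Rdh10 at 16.5, 15.8 and 28.0 CPM. Of the 19 retinoic acid genes outside the rule, 8 were lower and 4 higher than in other otic cells in all 3 libraries, where 25.4% and 23.7% of all genes were.

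The threshold of 2 companion genes cut through a gradual series. In otic cells with Isl1, Bmp4 stood at 43.5 CPM just outside the threshold, with 1 companion gene, and at 108 CPM just inside it, with 2, in CD replicate 1. The same pair was 31.5 and 52.8 CPM in WT replicate 1, and 45.4 and 71.4 CPM in WT replicate 2. The cells just outside numbered 322, 296 and 412 in CD replicate 1, WT replicate 1 and WT replicate 2, and those just inside 252, 173 and 241. With all 5 companions Bmp4 reached 595, 467 and 611 CPM, in 36, 20 and 20 cells. Otic cells with 2 or more companions but no Isl1 UMI had 32.7, 22.7 and 19.2 CPM of Bmp4.

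Several genes outside the rule climbed with Bmp4 and others dropped. Between 0 and 5 companions, Fn1 went with rising number of companions over 214 to 1088 CPM in CD replicate 1, 128 to 814 in WT replicate 1 and 142 to 892 in WT replicate 2. Tgfb2 spanned 40.3 to 283 CPM, 26.4 to 175 and 62.6 to 469 in the same libraries, and Lmo4 380 to 1046, 388 to 825 and 323 to 983. Cnmd, a matrix protein discussed further on, ended at 0.914 CPM with 5 companions in CD replicate 1, 2.76 in WT replicate 1 and 1.97 in WT replicate 2, against 10.4, 105 and 110 CPM with 0. It did not drop at every step, since with 1 companion it stood at 25.6, 107 and 137 CPM, above the level with 0 in each library. Rspo3 was lower at each further companion in all 3 libraries, and Bmp4, Fn1 and Tgfb2 were higher.

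**Figure D1:**
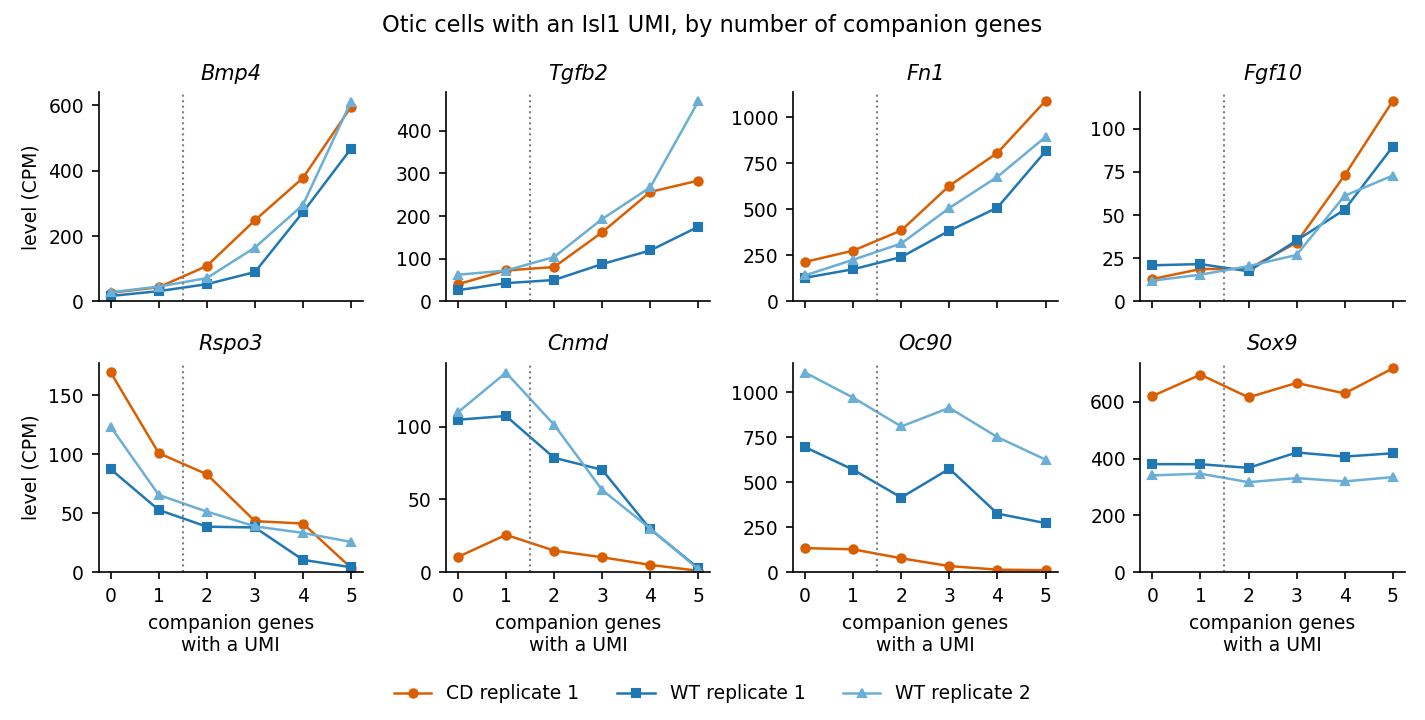
Level of 8 genes (CPM over the group of cells) in otic cells with Isl1, by the number of companion genes read in the cell (0 to 5), 1 line per library; the dotted line marks the threshold of 2. Bmp4, Tgfb2 and Fn1 climb with the number of companions in CD and WT libraries, Cnmd ends lower at 5 than at 0 companions, and Sox9 keeps near 616 to 718 CPM in the CD library, above 367 to 422 and 317 to 347 CPM in the WT libraries, at every step.

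The crista-like cells also lay near each other in a map of the otic cells built without the gate genes. Of the 15 nearest neighbours of a crista-like cell, 51.2% were crista-like in CD replicate 1, 44.3% in WT replicate 1 and 44.7% in WT replicate 2, against 11.04%, 9.76% and 9.58% for other otic cells. Crista-like cells were 21.0%, 15.4% and 13.9% of the otic cells in these libraries. They were 16.5% over all 3 libraries, from which the neighbours were drawn. The share grew with the number of companions, at 33.2%, 54.7%, 71.1% and 88.7% for cells with 2, 3, 4 and 5 companions over all libraries. The cells with 2 companions thus had the smallest share, and those with 5 had almost only crista-like neighbours. Median depth was also highest with 5 companions in every library, and the part of depth in these shares was not tested.

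Of 22 clusters of the otic cells, 2 held about as many crista-like cells as all the others together. They held 49.9% of the crista-like cells in CD replicate 1, 52.0% in WT replicate 1 and 51.9% in WT replicate 2, and 12.9%, 12.6% and 12.4% of the other otic cells. The first, of 557 cells, was led by Lmo4, Fn1, Meis2, Id3 and Gas1 and was 46.7% crista-like. The second, of 808 cells, was led by Top2a, Fn1, Cenpf, Ube2c and Lmo4, that is by dividing cells with the same Fn1 and Lmo4, and was 42.9% crista-like. These clusters are referred to by their leading genes and are given as a description.

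**Figure D2:**
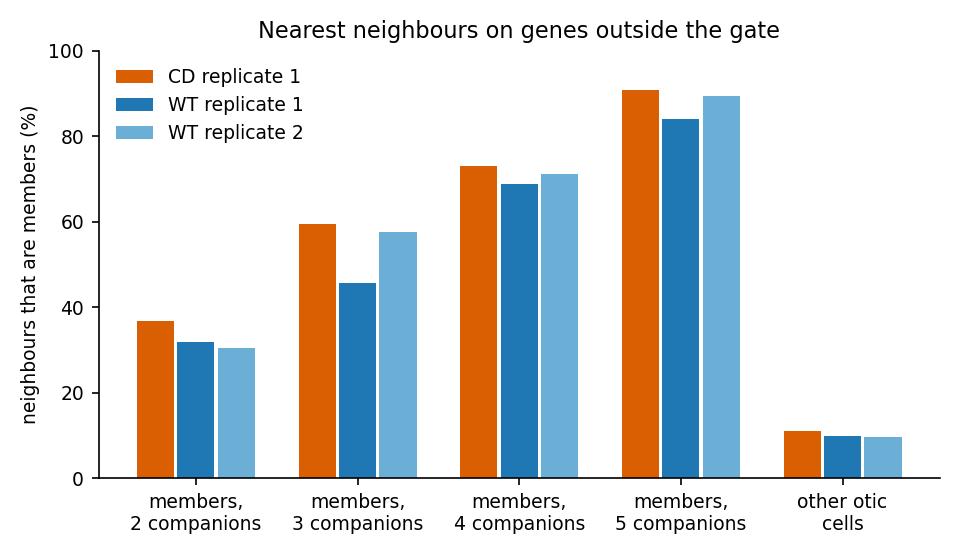
Share of the 15 nearest neighbours that are crista-like (percent), for crista-like cells with 2, 3, 4 and 5 companion genes and for other otic cells, by library. Shares rise with the number of companions in all 3 libraries, from 36.9% to 90.9% in CD replicate 1, and stay near 10% in other otic cells.

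The first comparison between the genotypes was of how many otic cells were crista-like. The share was 21.0% in CD replicate 1 (exact Clopper-Pearson 95% interval 19.3 to 22.7), against 15.4% in WT replicate 1 (13.9 to 17.0) and 13.9% in WT replicate 2 (12.7 to 15.2). The CD library lay above both WT libraries, but with 1 against 2 libraries the smallest p that an exact permutation test can give is 0.333, so that test was not run, and the intervals cover counting error only. Of all kept barcodes the crista-like cells were 5.37%, 5.01% and 3.62%, values that also depend on how much surrounding tissue each pool held.

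The CD library stayed above both WT libraries in stricter readings of the rule, with smaller gaps in some. With at least 3 companions the share was 9.46% in CD replicate 1, 7.28% in WT replicate 1 and 5.51% in WT replicate 2, and with at least 4 it was 4.29%, 3.27% and 2.65%. When cells with a neuronal UMI were not counted as crista-like, it was 13.7%, 12.3% and 8.69%. Such cells stayed among the otic cells, which numbered 2189, 2142 and 2867 as under the rule as given. On this basis the CD library stood nearer to WT replicate 1 than the WT libraries stood to each other. With every cell thinned to 5000 UMIs before the rule was applied it was 6.70% (5.20 to 8.48), 3.56% (2.43 to 5.01) and 4.19% (3.28 to 5.27), on 64, 31 and 70 cells, and the CD interval overlapped that of WT replicate 2. The 2 clusters richest in crista-like cells, built without the gate genes, showed smaller gaps when all their cells were counted. The cluster led by Lmo4 held 8.54% of otic cells in CD replicate 1, 7.70% in WT replicate 1 and 7.15% in WT replicate 2. The cluster led by Top2a held 12.2%, 10.9% and 10.7%. The transcript total of Isl1 in the crista-like cells was 197 CPM in CD replicate 1, 125 in WT replicate 1 and 174 in WT replicate 2.

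**Figure D3:**
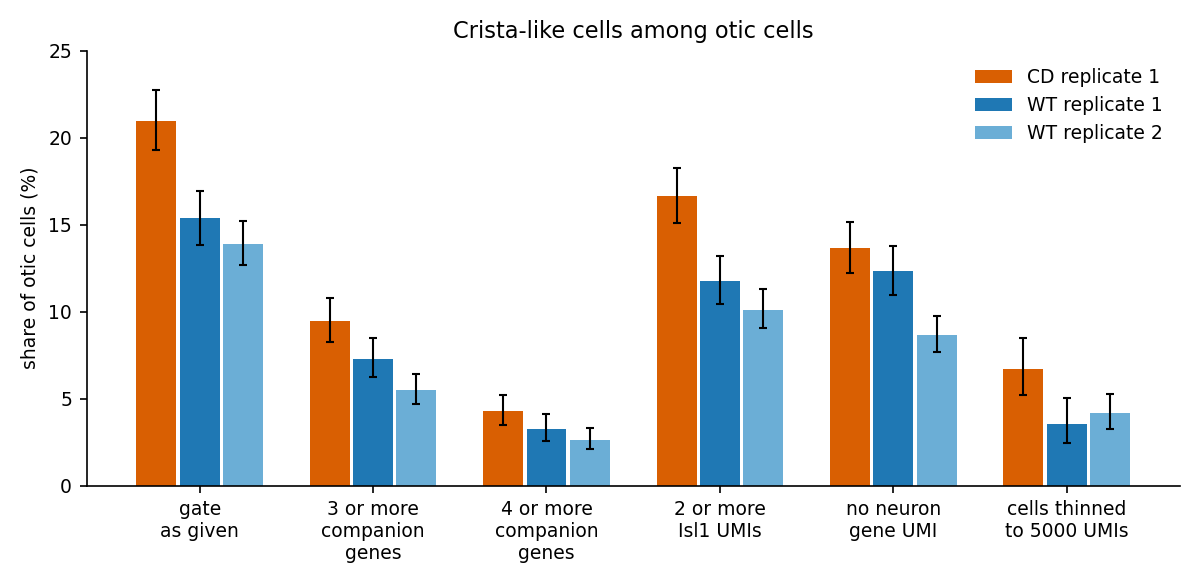
Crista-like cells as percent of otic cells in CD replicate 1, WT replicate 1 and WT replicate 2, by the rule as given and by stricter or thinned forms of it. Bars are shares and whiskers exact 95% binomial intervals for counting error; under the rule as given the CD library stands at 21.0% against 15.4% and 13.9%.

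Expression in the crista-like cells was then compared between CD and WT. UMIs were summed per library over the crista-like cells and tested with edgeR's quasi-likelihood test with Benjamini-Hochberg adjustment over all genes. At an adjusted p under 0.05, 28 genes rose and 28 fell in CD cells, 56 of 13653 genes tested (0.41%). The fit has 1 residual degree of freedom among libraries and assumes that the lone CD library varies as the WT libraries do. DESeq2's test called 13 genes, 2 higher and 11 lower. Applying the gate to cells thinned to 5000 UMIs left 4 calls. All levels in this comparison are CPM scaled by TMM normalisation.

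Sox9, the gene changed in the CD embryos, stood at 621 CPM in CD replicate 1, against 396 and 329 CPM in WT replicates 1 and 2. The CD library lay above both WT libraries. The log2 fold change was 0.78 ± 0.16 (SE; edgeR with Benjamini-Hochberg adjustment, adjusted p = 0.0225). A 3′ tag counts transcripts of either allele and does not read the changed codon, so it does not check the genotype. In other otic cells Sox9 stood at 729 CPM against 438 and 372 CPM, a log2 fold change of 0.85 (edgeR, Benjamini-Hochberg adjusted p = 0.00781). Requiring 2 Isl1 UMIs left the crista-like difference at 0.75, no longer past the threshold.

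The other SOX genes of the rule for named genes were not called. Sox10 was read at 74.9 CPM in CD replicate 1, 111 in WT replicate 1 and 141 in WT replicate 2, a log2 fold change of -0.75 (edgeR, Benjamini-Hochberg adjusted p = 0.0976). In other otic cells its change of -0.80 passed the test (edgeR, Benjamini-Hochberg adjusted p = 0.0265), and the difference between these changes was not called. Sox8, a close relative of both, had 3.18 CPM in CD cells against 5.49 and 6.81 CPM in WT cells, and Sox2 had 143 against 133 and 141 CPM. Of 13 SOX genes tested of 16 listed, Sox9 alone was called. Before thinning, 73.0% of the CD crista-like cells carried Sox10, against 89.7% and 87.7% of those in the WT libraries, and endothelial-type cells did in 1.80%, against 5.34% and 8.42%. In cells thinned to 5000 UMIs, 26.4% of the CD crista-like cells carried it, against 41.6% and 44.8%.

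Several matrix genes of the otoliths and of the membranes over the sensory patches fell. Of 14 listed genes 10 were tested, 3 fell (Oc90, Otol1 and Otogl) and 1 rose (Spp1), and the median log2 fold change was -0.95, against 0.00 over all genes tested. DESeq2's test called 1 gene of the list, Oc90. Oc90 was called in all 15 alternative settings in which it was tested, Otol1 in 12 of 15 and Otogl in 8 of 12. Tectb, Otop1 and Ceacam16 had no UMI in any crista-like cell. Oc90, the main protein of otoconia, stood at 51.3 CPM in CD replicate 1, against 440 and 831 CPM in WT replicates 1 and 2. The log2 fold change was -3.63 ± 0.28 (SE; edgeR with Benjamini-Hochberg adjustment, adjusted p = 4.72e-08).

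Oc90 was read in 27.9% of crista-like cells in CD replicate 1, 80.5% in WT replicate 1 and 82.7% in WT replicate 2. An Oc90 UMI was also carried by 1.2%, 17.0% and 40.5% of endothelial-type cells in the same 3 libraries. After thinning the shares were 12.1%, 56.2% and 63.0% in crista-like cells and 0% (exact 95% upper bound 2.18%), 2.44% and 15.2% in endothelial-type cells. Otol1, the collagen-like partner of Oc90 in otoconia, stood at 21.1 CPM in CD replicate 1, against 38.9 and 47.3 CPM in the WT replicates, and fell by 1.03 on the log2 scale (edgeR, Benjamini-Hochberg adjusted p = 0.0172). Otogl, an otogelin-like membrane protein, stood at 0.795 CPM against 4.77 and 5.13 CPM and fell by 2.62 (edgeR, Benjamini-Hochberg adjusted p = 0.0127).

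Cartilage matrix genes included 3 that fell. Of 19 listed genes 10 were tested, Cnmd, Col9a3 and Col9a1 fell and none rose, with a median log2 fold change of -0.44. Col9a1 was called in 6 of 15 alternative settings, against 14 of 15 for Cnmd and 13 of 15 for Col9a3. Cnmd, chondromodulin, an inhibitor of vessel growth in cartilage, stood at 10.9 CPM in CD replicate 1, against 63.9 and 78.02 CPM in the WT replicates. Its log2 fold change was -2.70 ± 0.23 (SE; edgeR with Benjamini-Hochberg adjustment, adjusted p = 1.44e-07). Col9a3 and Col9a1 encode chains of collagen IX. Col9a3 stood at 60.1 CPM against 106 and 155 CPM and fell by 1.12, and Col9a1 at 57.1 CPM against 90.9 and 123 CPM and fell by 0.91 (edgeR, Benjamini-Hochberg adjusted p = 0.00955 and 0.0342). Col2a1, the main cartilage collagen and a known SOX9 target, was read at 599 CPM in CD cells and at 485 and 561 CPM in WT cells and was not called.

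The promoters of Cnmd and Spp1 are shown because they belong to the called matrix genes with a fall and a rise. Both are RefSeq sequences of build GRCm38.p6, from 250 bases before to 50 after the gene start, 5′ to 3′ on the gene's strand. Capitals mark ACAAAG or ACAATG, short SOX-type motifs searched on both strands, so a match on the other strand reads CTTTGT or CATTGT. Cnmd lies at chr14:79662134-79662433 on the minus strand and Spp1 at chr5:104434861-104435160 on the plus strand.
Cnmd: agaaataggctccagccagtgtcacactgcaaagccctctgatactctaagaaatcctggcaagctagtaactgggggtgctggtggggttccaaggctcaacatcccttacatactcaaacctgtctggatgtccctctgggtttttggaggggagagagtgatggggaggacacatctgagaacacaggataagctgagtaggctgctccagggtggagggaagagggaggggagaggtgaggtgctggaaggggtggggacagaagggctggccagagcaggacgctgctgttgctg
Spp1: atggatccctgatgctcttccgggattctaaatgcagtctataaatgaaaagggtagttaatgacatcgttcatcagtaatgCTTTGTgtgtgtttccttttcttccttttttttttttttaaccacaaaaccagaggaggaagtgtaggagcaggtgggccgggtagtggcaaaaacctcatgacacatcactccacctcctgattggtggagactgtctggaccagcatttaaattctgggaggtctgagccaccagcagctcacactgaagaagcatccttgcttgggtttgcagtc

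The Cnmd window held 0 matches and the Spp1 window 1. Of all 32851 promoter windows in the table, 28.6% held at least 1 match. Of the windows of genes that fell, 5 of 27 held one (18.5%), over the 18 of 28 genes with a window, and of those of genes that rose 6 of 20 (30.0%), over 19 of 28 genes. A match is a description of the letters, not a bound site, and no match says only that these letters are absent from this window.

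Further genes fell in CD crista-like cells, and the CD library lay below both WT libraries for each gene named here. Fxyd3, a regulator of the sodium pump, stood at 2.54 CPM against 11.2 and 15.2 CPM, with a log2 fold change of -2.36. Bricd5 stood at 3.58 CPM against 12.4 and 21.7 CPM. Otx2, a homeobox gene of the posterolateral vesicle, stood at 9.22 CPM against 21.9 and 23.6 CPM and was the only one called of 8 posterolateral genes. Sphk1, which makes sphingosine-1-phosphate, stood at 6.20 CPM against 17.3 and 14.7 CPM. Krt19, an epithelial keratin, stood at 14.0 against 25.9 and 31.5 CPM. Cuedc2, Gprin3 and Ss18l2 also fell, with log2 fold changes of -1.15, -1.14 and -1.04. Gprin3 was called in 4 of 14 alternative settings and Krt19 in 6 of 14, against 13 of 15 for Cuedc2 and 14 of 15 for Ss18l2.

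Secreted Wnt genes were called in opposite directions. Wnt7b stood at 14.5 CPM in CD replicate 1, against 33.8 and 37.3 CPM in the WT replicates, and fell by 1.29 on the log2 scale (edgeR, Benjamini-Hochberg adjusted p = 0.00332). Wnt5a, a ligand that mostly acts outside the beta-catenin route, stood at 56.3 CPM against 23.1 and 29.3 CPM, and rose by 1.10 (edgeR, Benjamini-Hochberg adjusted p = 0.00607). Sfrp1, which binds Wnts outside the cell, stood at 117 CPM against 220 and 207 CPM and fell by 0.87. Of 23 Wnt ligands and R-spondins 11 were tested and these 1 rise and 1 fall were called, and of 13 antagonists 8 were tested and Sfrp1 was called. None of 16 tested beta-catenin target genes of 19 listed was called, with a median log2 fold change of 0.13 and 3 at an unadjusted p under 0.05.

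Spp1, osteopontin, a secreted bone and matrix protein, stood at 137 CPM in CD replicate 1, against 79.5 and 79.1 CPM in the WT replicates. It rose by 0.79 on the log2 scale (edgeR, Benjamini-Hochberg adjusted p = 0.0260). Igfbp5, which binds insulin-like growth factors, stood at 874 CPM against 295 and 532 CPM and rose by 1.08 ± 0.21 (SE; edgeR with Benjamini-Hochberg adjustment, adjusted p = 0.0140). The CD library was above both WT libraries, although the WT libraries themselves were far apart for Igfbp5. Without WT replicate 1 its log2 fold change was 0.72, and without WT replicate 2 it was 1.57, neither with a test. DESeq2 gave no call for either gene, with adjusted p = 0.182 for Spp1. Spp1 was called in 9 of 15 alternative settings and Igfbp5 in 13 of 15.

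Nrep, a gene of regenerating neurons, stood at 453 CPM in CD replicate 1, against 213 and 276 CPM in the WT replicates, a log2 fold change of 0.89. Runx1t1, a transcriptional corepressor, stood at 32.1 against 14.0 and 16.3 CPM, and Samd5 at 30.4 against 11.5 and 12.8 CPM. Fam20a, a pseudokinase of the secretory route, stood at 20.3 against 7.19 and 9.64 CPM. Lrfn5, a synaptic adhesion protein, stood at 26.4 against 14.1 and 11.4 CPM, Tmtc2 at 16.7 against 7.28 and 8.06 CPM, and Nup62cl at 24.4 against 10.8 and 13.5 CPM. All 7 rose, with log2 fold changes between 0.89 and 1.33 (edgeR with Benjamini-Hochberg adjustment). Tmtc2 was called in 4 of 14 alternative settings and Nup62cl in 8 of 15, against 13 of 15 for Nrep and 13 of 14 for Samd5. Runx1t1 and Fam20a were each called in 9 of 14 and Lrfn5 in 9 of 15.

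Cbln2, a secreted synapse organiser, was a crista-like gene and rose in CD cells. Its level was 17.2 CPM in CD replicate 1, against 4.41 and 5.34 CPM in the WT replicates, a log2 fold change of 1.83 ± 0.27 (SE; edgeR with Benjamini-Hochberg adjustment, adjusted p = 0.00134). In other otic cells it was near 1 CPM or below, at 1.03 against 0.5003 and 0.505 CPM. Its log2 ratio of crista-like over other otic cells was 3.18 in CD replicate 1, 1.86 in WT replicate 1 and 2.07 in WT replicate 2, but the test of whether the genotype difference differed between crista-like and other otic cells did not call it (0.80; edgeR, Benjamini-Hochberg adjusted p = 0.818). Gad2, which makes the transmitter GABA, rose by 2.39 in crista-like cells and was also read outside them, at 6.36 against 1.53 and 0.838 CPM inside and 7.74 against 0.896 and 0.945 CPM outside.

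**Figure D4:**
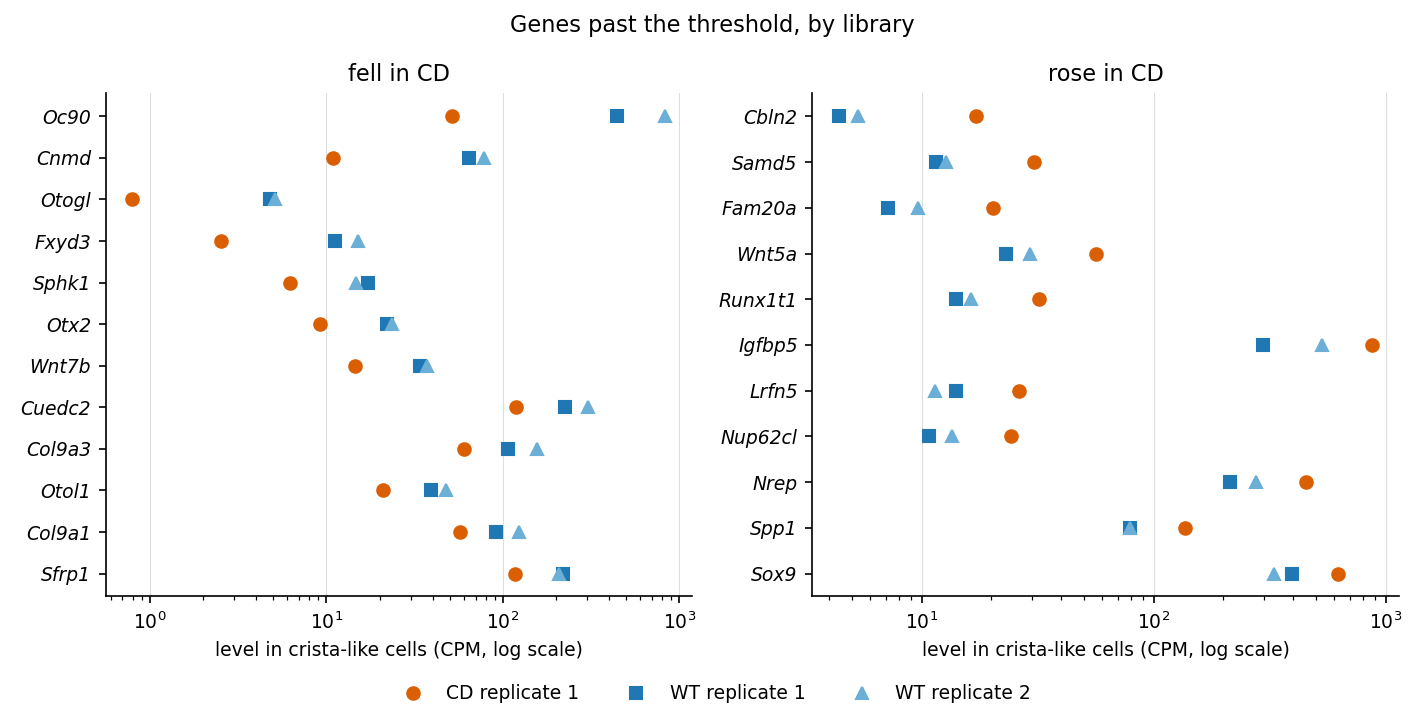
Level of 12 genes that fell and 11 that rose in CD crista-like cells (CPM, TMM-scaled, log axis), 1 point per library with the CD library listed first. The CD point lies below both WT points for every gene that fell and above both for every gene that rose; Oc90 stands at 51.3 CPM in the CD library against 440 and 831 CPM.

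The genes that mark the crista fields were not called. All 11 crista genes outside the rule were tested, none rose or fell by edgeR or by DESeq2, 3 had an unadjusted p under 0.05 by edgeR, where 613 of all 13653 genes did (4.49%), and their median log2 fold change was 0.23, against 0.00 over all genes tested. Bmp4 stood at 214 CPM in CD replicate 1 against 127 and 156 CPM in the WT replicates, a log2 fold change of 0.60 ± 0.18 (SE; edgeR with Benjamini-Hochberg adjustment, adjusted p = 0.213). Msx2 had 41.6 against 26.2 and 22.7 CPM and Bdnf 137 against 96.1 and 84.8 CPM, with adjusted p of 0.104 and 0.216 by edgeR with Benjamini-Hochberg adjustment. For these 3 genes the CD library was above both WT libraries, and the difference did not pass the test. The log2 fold changes of all 11 crista genes were above 0, though none was called. Bmp4 passed it in cells with exactly 2 companions (0.74), in cells without neuronal UMIs (0.76) and without the filter on low genes (0.61). Msx2 passed it without the filter on low genes (0.77), with at least 3 companions (0.78), with at most 5% mitochondrial UMIs (0.75) and in cells without neuronal UMIs (0.96).

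The pathways tied to the crista gave no call by edgeR or DESeq2. None of 16 tested BMP ligands and antagonists of 19 listed was called, with a median log2 fold change of 0.14, and none of 18 BMP receptors, SMADs and targets, with a median of 0.22, where 4 and 5 genes had an unadjusted p under 0.05 (4.49% over all genes tested). None of 18 tested retinoic acid genes of 19 listed was called (median 0.00, 3 at an unadjusted p under 0.05). Crabp1, a retinoic acid binding protein, stood at 64.8 CPM in the CD library against 41.8 and 41.9 CPM, but 1 cell gave 21.3% of its CD UMIs, and the receptor Rxrg stood at 5.80 against 12.1 and 13.3 CPM, with adjusted p of 0.23 and 0.0976 (edgeR, Benjamini-Hochberg). None of 12 tested neurotrophin genes of 13 listed, 17 prosensory genes or 12 tested dorsal and endolymphatic genes of 16 listed was called, with 4, 0 and 2 at an unadjusted p under 0.05.

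The gate genes themselves chose the cells, so their levels are given without a test. Ngfr stood at 33.0 CPM in CD replicate 1, 24.4 in WT replicate 1 and 26.0 in WT replicate 2, and Mybpc1 at 25.9, 20.1 and 19.3 CPM. Rprm stood at 81.5, 87.9 and 152 CPM, and Prrx2 at 139, 105 and 107 CPM. Of the otic genes of the rule, Fbxo2 had 39.6, 53.6 and 127 CPM and Pax2 61.7, 63.4 and 66.4 CPM.

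Other cell types were traced through marker lists, since their transcripts differed between the libraries. Of 9 erythroid genes 5 rose in CD crista-like cells (Hba-x, Hba-a1, Hba-a2, Hbb-bh1 and Hbb-bt). The list summed to 7637 CPM in CD replicate 1, 1811 in WT replicate 1 and 4150 in WT replicate 2, against 7737, 5125 and 8018 CPM in other otic cells. Single cells carried much of this, and for Hba-x 1 cell held 30.5%, 77.9% and 43.3% of the crista-like UMIs in CD replicate 1, WT replicate 1 and WT replicate 2. Hba-a1 and Hba-a2 are nearly identical copies, and the split of reads between them is uncertain.

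Macrophage markers summed to 15.1 CPM in CD replicate 1, 1.96 in WT replicate 1 and 8.80 in WT replicate 2. Of 5 tested macrophage genes of 6 listed, Cx3cr1 was called, and 1 cell held 82.9% of its CD UMIs. Mesenchymal markers outside the rule summed to 96.3, 30.6 and 80.3 CPM, with Tcf21 at 0, and endothelial markers to 39.3, 33.0 and 33.0 CPM, and no gene of either list was called (2 and 1 at an unadjusted p under 0.05 by edgeR, 0 by DESeq2). In 5 of the 56 called genes 1 cell held more than 50% of the CD UMIs, namely Cx3cr1, Tapbpl, Cldn22, Ccl3 and Cxcl14.

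The counts were therefore repeated without the cells rich in blood, macrophage or endothelial transcripts, a step chosen after seeing these values. These had over 1% haemoglobin UMIs, at least 3 macrophage UMIs, or at least 3 UMIs of Cdh5 and Pecam1 together. Cells with fewer such UMIs stayed in. Kept were 450 of 459 crista-like cells in CD replicate 1, 326 of 329 in WT replicate 1 and 394 of 399 in WT replicate 2. The repeat gave 41 called genes, 17 higher and 24 lower in CD cells, of which 40 were among the 56. Oc90, Cnmd, Sox9, Igfbp5, Spp1, Wnt5a and Cbln2 were among those kept, and of the haemoglobin genes Hba-a2 alone was still called, at 0.86, where it had been 1.42. Col9a1 lost its call at an adjusted p of 0.0896 (edgeR, Benjamini-Hochberg), as did Krt19 (0.0773), Gprin3 (0.0730), Tmtc2 (0.0710) and Nup62cl (0.0661), with log2 fold changes of -0.89, -0.99, -1.14, 1.12 and 1.03 against -0.91, -1.04, -1.14, 1.12 and 1.01 in all crista-like cells.

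The last comparison asked which genotype differences had a different size in crista-like cells and in the other otic cells. The same edgeR test with a library block was run on the interaction, that is the log2 fold change in crista-like cells minus that in other otic cells. This fit also has 1 residual degree of freedom and 1 CD library. Its SE and p therefore do not measure a spread between CD libraries. The test called 81 of 15656 genes (0.517%), 54 with a higher and 27 with a lower value in crista-like cells. In other otic cells themselves 94 of 16208 genes were called between CD and WT (0.58%). Of the 56 genes called in crista-like cells 30 were also called there in the same direction, 7 up and 23 down, which is 53.6% of the 56 and 31.9% of the 94. The same 3 libraries underlie both.

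Among genes outside the gate, and apart from haemoglobin genes, Lyz2 and Mt1, the smallest p of the interaction was that of Igfbp5. The other otic cells had 328 CPM in CD replicate 1, against 234 and 299 CPM in the WT replicates, a log2 fold change of 0.30, and the interaction was 0.82 ± 0.10 (SE; edgeR with Benjamini-Hochberg adjustment, adjusted p = 3.23e-05). It was called in all 13 settings in which it was tested, between 0.52 and 0.86. These settings reuse the same 3 libraries, and the WT libraries were themselves far apart for Igfbp5 in crista-like cells. Among Isl1-carrying cells Igfbp5 stood at 312 CPM with 0 companions and 995 CPM with 5 in CD replicate 1, at 276 and 219 CPM in WT replicate 1 and at 320 and 676 CPM in WT replicate 2. At 0 companions the 3 libraries were thus close, and from 1 to 5 the CD library was above both WT libraries. Just outside the threshold, with 1 companion, Igfbp5 stood at 624 CPM in CD replicate 1 against 338 and 495 CPM in WT replicates 1 and 2. With 2 companions it stood at 908 against 295 and 516 CPM, so the gap was not confined to the cells with most companions.

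Spp1, Wnt5a, Nrep and Gata3 followed with smaller interactions. Spp1 stood at 66.6 CPM in other otic cells of CD replicate 1 against 56.4 and 52.5 CPM in the WT replicates, and its interaction was 0.50 (edgeR, Benjamini-Hochberg adjusted p = 0.00242). With at least 4 companions the Spp1 value was -0.27. Wnt5a stood at 41.5 against 25.01 and 30.1 CPM in other otic cells, with an interaction of 0.51 (edgeR, Benjamini-Hochberg adjusted p = 0.0258). The Nrep interaction was 0.34. Gata3, a zinc-finger factor of the prosensory vesicle, had 141 CPM in CD crista-like cells against 115 and 134 CPM, was not called there, and had an interaction of 0.33 (edgeR, Benjamini-Hochberg adjusted p = 0.0402). Without the cells rich in blood, macrophage or endothelial transcripts, Spp1 and Nrep were still called, at 0.55 and 0.36. Wnt5a and Gata3 were then not called, at 0.53 and 0.35 with adjusted p of 0.0519 and 0.0610 (edgeR, Benjamini-Hochberg).

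Of the 28 genes that fell, 3 had a larger fall in crista-like than in other otic cells, namely Oc90, Prss56 and E130114P18Rik. For Oc90 the log2 fold change was -3.63 in crista-like cells and -3.16 in other otic cells, and the interaction was -0.48 (edgeR, Benjamini-Hochberg adjusted p = 0.000657). The Oc90 interaction was 0.10 in cells with exactly 2 companions. Prss56, a serine protease gene, had an interaction of -1.22 and E130114P18Rik one of -0.78, and each was called in 5 of 13 alternative settings. Without the cells rich in blood, macrophage or endothelial transcripts neither was called, at -1.04 and -0.80 with adjusted p of 0.463 and 0.0826 (edgeR, Benjamini-Hochberg). The falls of Cnmd, Otol1, Fxyd3, Wnt7b and Col9a3 were not called as different between crista-like and other otic cells; an interaction that misses the threshold does not show that they are equal.

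**Figure D5:**
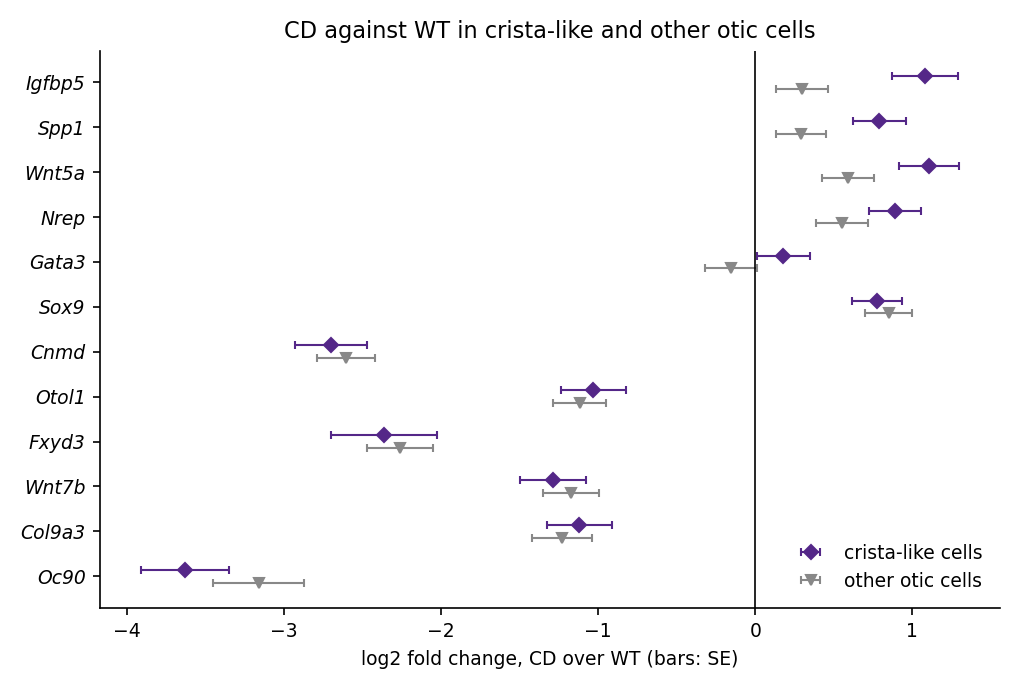
Log2 fold change, CD over WT, with standard error from edgeR, in crista-like cells and in other otic cells for 12 genes. Igfbp5, Spp1, Wnt5a, Nrep and Gata3 stand higher in crista-like cells, Igfbp5 at 1.08 against 0.30, while Sox9 stands at 0.78 and 0.85 and the genes that fell stand below 0 in both.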

How the data were processed

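Cells were encapsulated with the Chromium 3′ kit (version 3.1), per the labels' protocols. Per the submitters' processing notes the authors used Cell Ranger 6.0 and build mm39, and per the file headers version 6.0.0. Each deposited matrix gives raw UMI counts for 32285 features by barcode; the authors did not normalise them, and 0 columns belonged to other samples. Members and gene lists were chosen with earlier results of these data known.

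From these counts, cells were chosen by the rule in the text, on filtered barcodes of 12322, 8330 and 16649 deposited in CD replicate 1, WT replicate 1 and WT replicate 2 (186439890, 157373393 and 202584468 UMIs). Doublets were scored with Scrublet in scanpy 1.11.5 (expected rate 5%) and kept, their removal being an alternative. UMIs were summed per library over the crista-like and over the other otic cells and fitted with edgeR 4.0.16 in R 4.3.3 (filterByExpr, TMM, quasi-likelihood test, adjusted p under 0.05), with DESeq2 1.42.0 as an alternative. The interaction fit had the library as a block. CPM of named genes and ratios are TMM-scaled; list sums and levels by number of companions are plain CPM with no such scaling. Neighbours (15) and Leiden clusters (resolution 1) used 2000 variable genes and 30 components, without gate genes, haemoglobin, Xist and Y-linked genes. Endothelial-type cells had at least 3 UMIs of Cdh5 and Pecam1 together, none of Epcam and at most 1 of Prrx1 and Twist1. Intervals are exact 95% binomial ones. The scripts were tested on simulated counts.

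Named genes were the gate genes, Sox9, Sox10, Sox8 and Sox2, up to 10 genes each way of largest change among those called averaging 10 CPM or more and with a CD value further from each WT library than these are from each other, up to 4 called genes (else the 2 of smallest p) of each list, the 20 highest and 10 lowest ratios at 20 CPM or more, 5 genes each way of the interaction, and 12 genes called earlier in all otic cells; any other name was chosen after its values were seen, and some genes that this rule gives are not reported here. Alternatives covered normalisation, gene filter, gate, depth, doublets and each WT replicate left out.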

Additional observations from a re-analysis of the deposited data

Results flagged for a closer look

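The interaction test called 81 genes, and 29 of them are given here. For these genes the difference between CD and WT had another size in crista-like cells than in other otic cells, by the edgeR interaction test with Benjamini-Hochberg adjustment; values are the log2 fold change in crista-like cells minus that in other otic cells, and explanations were not tested. Among genes of the otic epithelium the value was positive for Igfbp5 (0.82), Id4 (0.53), a BMP-responsive inhibitor of bHLH factors, Wnt5a (0.51), Spp1 (0.50), Nrep (0.34) and Gata3 (0.33), and for the neurotrophin receptor Ntrk2 (0.91).

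It was negative for Oc90 (-0.48), for the actin linker Tln2 (-0.48), the ETS factor Elf1 (-0.54), the zinc transporter Slc30a4 (-0.64), the surface protein Ly6e (-0.65), the endosomal syntaxin Stx7 (-0.66), E130114P18Rik (-0.78), the protease gene Prss56 (-1.22) and Fst (-1.36), follistatin, which binds activins and BMPs. Elf1, Slc30a4, Tln2, Stx7 and Ly6e were themselves not called between CD and WT in crista-like cells. Fst stood at 8.66 CPM in CD replicate 1 against 12.5 and 43.9 CPM in WT replicates 1 and 2, so that the WT libraries were further apart than the CD library was from WT replicate 1.

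Values were also positive for blood and macrophage genes. They were 1.22 for Hba-x, 1.198 for Hba-a1, 1.02 for Hba-a2 and 1.11 for Hbb-bh1, and 5.67 for Lyz2, 3.55 for Cx3cr1, 4.52 for Ccl3 and 2.64 for Fcer1g, with 0.85 for Hbb-bt and with 1.13 for Mt1 and 1.26 for Mt2, which encode metallothioneins. Cxcl14, a chemokine gene, had 3.49 and Tapbpl, of the antigen-presentation route, 1.72, and 1 cell held more than 50% of the CD UMIs of Lyz2, Fcer1g, Cx3cr1, Ccl3, Cxcl14 and Tapbpl. Without the cells rich in blood, macrophage or endothelial transcripts none of the haemoglobin genes, Mt1, Mt2, Lyz2 and Fcer1g was called. Mt1 then stood at -0.58, Fcer1g at -0.20 and Hbb-bh1 at -0.014, while Lyz2 stood at 5.50 with an adjusted p of 0.729 (edgeR, Benjamini-Hochberg). Cx3cr1 and Ccl3 were then not tested. Wnt5a, Gata3, Prss56, E130114P18Rik, Fst, Slc30a4 and Tapbpl also lost their call there, at 0.53, 0.35, -1.04, -0.80, -1.37, -0.60 and 1.73.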

How the results depend on the processing

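The number of genes called between CD and WT in crista-like cells (56) was 13 with DESeq2's test, 131 with no gene filter, 21 with at least 2 Isl1 UMIs, 116 with at most 5% mitochondrial UMIs, 27 with equal cells and UMIs and 4 with cells thinned to 5000 UMIs before the gate; it lay between 41 and 83 in the other settings. The number called in the interaction (81) was 130 with no gene filter, 21 without Scrublet doublets, 151 with at least 2 Isl1 UMIs, 47 with at most 5% mitochondrial UMIs, 26 without neuronal UMIs, 2 with thinned cells, 35 with at least 4 companions, 27 without blood, macrophage or endothelial cells and 19 in the 2 clusters richest in crista-like cells; it lay between 60 and 112 in the other settings. The cause of these moves was not tested. With at least 3 or 4 companions, at least 2 Isl1 UMIs or no neuronal UMIs, the other otic cells of the interaction also changed. They then included the crista-like cells that the stricter rule left out. Leaving out a WT replicate gives no count, as no residual degree of freedom is left; log2 fold changes then ran from -4.02 to -3.10 for Oc90, -2.82 to -2.53 for Cnmd, 0.65 to 0.92 for Sox9 and 0.84 to 1.94 for Hba-x.

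The share of otic cells, in CD replicate 1, WT replicate 1 and WT replicate 2, was 9.46%, 7.28% and 5.51% with at least 3 companions. It was 4.29%, 3.27% and 2.65% with at least 4, and 16.6%, 11.8% and 10.1% with at least 2 Isl1 UMIs. It was 13.7%, 12.3% and 8.69% without neuronal UMIs, 6.70%, 3.56% and 4.19% thinned, and 10.46%, 7.98% and 7.22% in the 2 clusters. With exactly 2 companions it was 12.7%, 8.71% and 8.90%, taken over otic cells without the crista-like cells of 3 or more companions. Over all otic cells, those with Isl1 and exactly 2 companions were 11.5%, 8.08% and 8.41%. The shares in the 2 clusters count their crista-like cells only, not all their cells. In the share without neuronal UMIs, cells with such UMIs were not counted as crista-like but stayed among the otic cells. The settings on at least 4 and exactly 2 companions, on blood, macrophage and endothelial cells and on the 2 clusters were chosen after seeing the data.

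For the named genes, 1412 values of CD against WT were counted as unchanged, 148 lost the threshold and 45 gained it. Another 10 moved with no test and 2 reversed (Hbb-bt, -0.16 with at least 3 and -0.20 with at least 4 companions). The 1412 include 96 without WT replicate 1 and 94 without WT replicate 2, which have no test. Those were counted as unchanged where the shift was smaller than the SD between the WT libraries, and the rest stayed on their side of the threshold. Of the interaction values 219 stayed, 126 lost the threshold and 26 reversed. The reversed ones were Oc90 (0.10) with exactly 2 companions, Spp1 (-0.27), Id4 (-0.21), Fst (0.29), Hbb-bt (-0.61) and Cxcl14 (-0.81) with at least 4, Fcer1g (-0.45), Cx3cr1 (-0.88), Hbb-bt (-0.60) and Tapbpl (-0.093) with at least 3, Tapbpl (-0.35) with at least 2 Isl1 UMIs, Cxcl14 (-1.004) in the 2 clusters, Cx3cr1 (-0.34) without neuronal UMIs, and Slc30a4 (0.86), Prss56 (1.18), Mt1 (-1.96), Fcer1g (-5.34), Stx7 (0.21), Ly6e (0.059), Hba-x (-0.33), Hba-a1 (-0.21) and Tapbpl (-0.86) in thinned cells. Without blood, macrophage or endothelial cells Mt1 (-0.58), Fcer1g (-0.20), Hbb-bt (-0.093) and Hbb-bh1 (-0.014) reversed. No paired analysis was possible because CD and WT share only replicate number 1. Genes near 1 CPM are limited by depth.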

Other observations

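Genes of G2 and M phase stood a little higher in crista-like than in other otic cells. Of 22 genes of G2 and M phase, 21 had a higher level in crista-like cells in all 3 libraries, with a median log2 ratio of 0.28 against 0.00 over all genes, of which 23.7% were higher in all 3. Of 20 S phase genes 10 were higher in all 3 libraries, with a median of 0.08. Mki67, a marker of cycling cells, had log2 ratios of 0.43 in CD replicate 1, 0.29 in WT replicate 1 and 0.42 in WT replicate 2. None of these 22 genes and none of 20 S phase genes was called between CD and WT, by edgeR or DESeq2, and 0 of each had an unadjusted p under 0.05.

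Fgf16, a fibroblast growth factor gene, was higher in crista-like than in other otic cells, at log2 ratios of 1.98 in CD replicate 1, 2.16 in WT replicate 1 and 1.91 in WT replicate 2. It stood at 11.05 CPM in CD crista-like cells and at 6.48 and 5.24 CPM in WT crista-like cells, and was not called. It was chosen after its values were seen. None of 22 FGF pathway genes, 11 tested hedgehog genes of 12 listed or 18 tested Notch genes of 19 listed was called by edgeR or DESeq2, with 1, 0 and 2 at an unadjusted p under 0.05. Hes5, a Notch target, stood at 12.6 CPM in CD replicate 1 against 7.28 and 4.40 CPM, with 35.4% of its CD UMIs in 1 cell. The hedgehog co-receptor genes Gas1 and Cdon were higher in crista-like cells in all 3 libraries, at log2 ratios of 0.81, 0.83 and 0.68 for Gas1 and 0.65, 0.59 and 0.44 for Cdon.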
